A study of Mus musculus with 16 samples.

Results

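The neuroectoderm marker genes Sox1, Sox3, Pax3, Pax6, Zic1, Otx2, Neurog2, Nes, Tubb3 and Olig2 were followed in differentiating mouse embryonic stem cells treated with a hawthorn extract. The 10 genes are a list of names, and membership used no measured value, although earlier results of these data were known when the list was made. On the array, 14 probes belonged to them, of which the gene name column alone found 3 and the RefSeq transcript the others. A probe entered the tests if, in 1 or more of the groups, no array was without a signal well above background by the scanner's software, and the brightest such probe stood for its gene. By this rule 8 of the 10 genes were among the 29304 genes tested, 6 of them on the strength of all 16 arrays, while Neurog2 and Pax3 were not tested.

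All cells were mESCs of the line CGR8-Myh6-GFP, which carries a cardiomyocyte reporter, and all were differentiated towards cardiomyocytes in multiwell plates. On day 4 they received the vehicle DMSO, 0.25 mg/ml of the extract WS1442 or 0.1 mg/ml of MeOH eluate, the methanol fraction of the extract in which oligomeric procyanidins are enriched. RNA was taken after 6 h or 24 h, at each time point from 2 vehicle cultures and from 3 cultures of each treatment. Each of the 16 samples was hybridised to its own 1-colour array. Nothing in the labels says that replicates came from separate differentiations, so the p-values measure the spread between these samples, which may be technical. All arrays of a time point lay on 1 slide, so for levels the time point and the slide cannot be told apart. Comparisons with DMSO were made within a slide.

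Neuroectoderm is the part of the embryonic ectoderm that forms the neural plate and then the brain, spinal cord and neural crest. It arises by default where bone morphogenetic protein (BMP) and nodal signals are low, and it competes with the mesoderm from which heart muscle comes. Its earliest markers are transcription factors such as Sox1, Sox3, Otx2, Pax6, Zic1 and Pax3. Nes (nestin) is an intermediate filament of progenitors, Neurog2 and Olig2 drive neurogenesis and the motor neuron and oligodendrocyte lineages, and Tubb3 is a neuronal tubulin. Several of them are not exclusive to neural cells. Otx2 is also active in the epiblast and the anterior primitive streak, and Nes in other proliferating progenitors.

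The signals below stand on these array probes, each shown by its first 30 bases, 5′ to 3′, in the sense given in the array files. They are shown because each covers only 1 stretch of its transcript, and because the second Otx2 probe was well above background on only 1 of the 16 arrays.
Otx2, probe kept: aattcagagcaactggatactgatctagaa
Otx2, probe not kept: ccagcatttctgtttgtttgtttgctttgc
Nes: catcatctcagcctgctgagatcttgtttc
Pax6: gagttatgatacctacacccctccgcacat
Sox1: cccatcccctcccgattcctctctgggaaa
Sox3: ggtgtttgcggagaaaccgcggccccttcc
Zic1: cctttgcaagatgtgcgataagtcctacac
Tubb3: catggatgagatggagttcaccgaggccga
The kept Otx2 probe was listed for 10 RefSeq transcripts and the other for 2. The kept Pax6 probe was also listed for 10. The files gave no genome position for these probes. Further Pax6 probes, for Ensembl transcripts, lay at chr2:105523175-105523234 and chr2:105524641-105524700 of mm9, and a further Pax3 probe at chr1:78181199-78181258. None of these was well above background on any of the 16 arrays.

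Signals are given as log2 intensity after quantile normalization over the 16 arrays, a scale on which 1 unit is a 2-fold change. Differences were tested by limma in 1 fit of all 6 groups, with p-values adjusted by the Benjamini-Hochberg method over all genes tested, and a gene was called at an adjusted p-value under 0.05. Of all genes tested, 5.59% were called with WS1442 at 6 h, 17.0% with MeOH eluate at 6 h, 24.7% with WS1442 at 24 h and 18.2% with MeOH eluate at 24 h. Of the 8 tested marker genes, 1, 3, 3 and 3 were called in these comparisons. With WS1442 at 6 h, 0 were called higher and 1 lower, against 4.14% and 1.45% of all genes. With MeOH eluate at 6 h it was 1 and 2, against 8.65% and 8.38%. At 24 h it was 3 and 0 with WS1442, against 12.9% and 11.9%, and 2 and 1 with MeOH eluate, against 9.64% and 8.6%. Scaling to the 75th percentile moved the balance over all genes, with 1464 of 1720 called genes higher with WS1442 at 6 h in place of 1213 of 1638, 1774 of 4170 with MeOH eluate at 6 h in place of 2535 of 4991, 2879 of 7165 with WS1442 at 24 h in place of 3771 of 7249, and 2214 of 5162 with MeOH eluate at 24 h in place of 2825 of 5344. With so few members, the shares of 12.5%, 37.5%, 37.5% and 37.5% cannot be read closely against this background, and Pax6 and Olig2 passed the background rule only through some groups. Both treatments were set against the same DMSO cultures, so their values stand side by side and are not independent. In bulk samples, fewer cells of a type and less RNA per cell cannot be told apart.

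**Figure D1:**
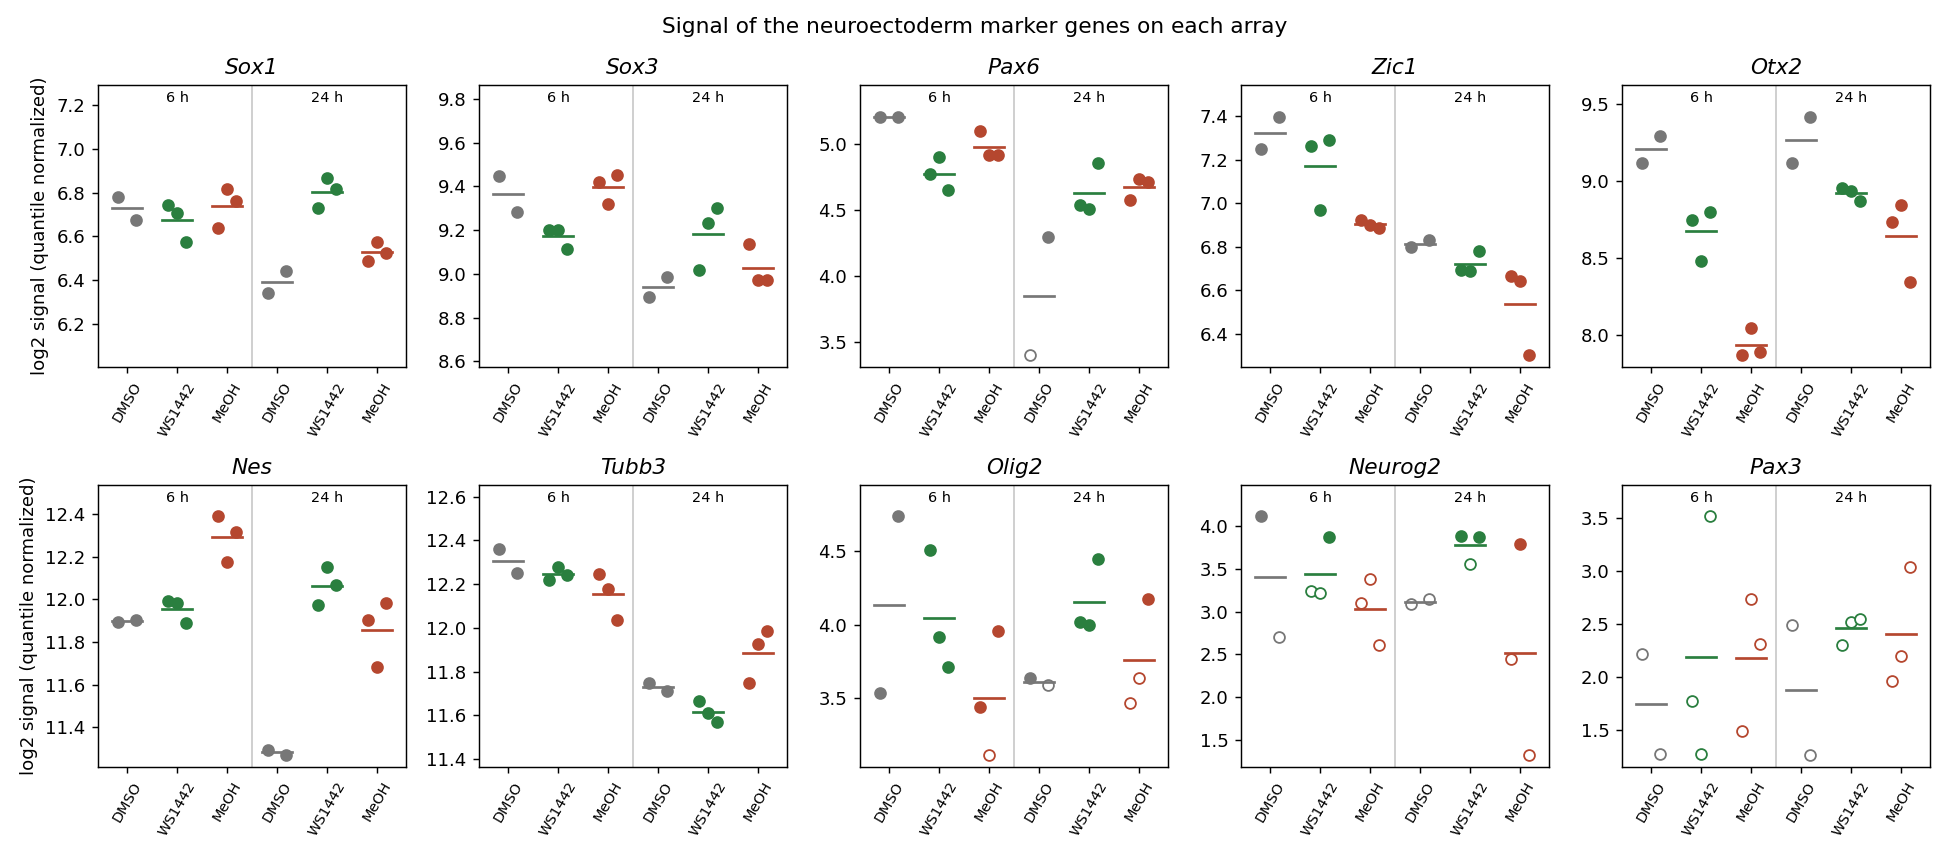
Log2 signal of the 10 marker genes on each of the 16 arrays, with 1 point per array, horizontal lines at the group means, and grey for DMSO, green for WS1442 and red for MeOH eluate. Open points were not well above background. Otx2 lay below DMSO and Nes, except with WS1442 at 6 h, above it, and Pax3 was open on all 16 arrays.

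Counted by arrays alone, all treated cultures lay above DMSO for 0 members and below it for 3 with WS1442 at 6 h (20.1% and 15.9% of all genes), for 1 and 4 with MeOH eluate at 6 h (25.6% and 24.6%), for 5 and 3 with WS1442 at 24 h (27.8% and 23.4%) and for 4 and 2 with MeOH eluate at 24 h (22.1% and 21.5%).

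The direction of change differed between the genes. Otx2 fell with both treatments at 6 h and with MeOH eluate at 24 h, by up to 2.40-fold, while Nes rose with MeOH eluate at 6 h and with both treatments at 24 h, by up to 1.72-fold. Sox1 rose with WS1442 at 24 h, Pax6 with both treatments at 24 h, and Zic1 fell with MeOH eluate at 6 h. The median log2 fold change of the 8 tested genes was -0.12 with WS1442 and -0.19 with MeOH eluate at 6 h, and 0.33 and 0.14 at 24 h. With normexp the medians were smaller, at -0.10 with both treatments at 6 h and 0.14 and 0.07 at 24 h, and with 75th percentile scaling that of MeOH eluate at 24 h was 0.09. Over all genes tested the medians lay between -0.01 and 0.05. By the limits of the study, a fold change over 2 and an unadjusted p-value under 0.05, Otx2 with MeOH eluate at 6 h was the only member past them in the comparisons with DMSO. Of all genes 2.11% passed them in that comparison, and 0.43%, 2.08% and 2.99% with WS1442 at 6 h, WS1442 at 24 h and MeOH eluate at 24 h.

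Otx2, a homeodomain factor that specifies the forebrain and midbrain, showed the largest fall among the members. At 6 h its log2 signal was 9.12 and 9.29 in the DMSO cultures, 8.75, 8.48 and 8.80 with WS1442, and 7.87, 8.05 and 7.89 with MeOH eluate. The 3 groups did not overlap, with DMSO highest and MeOH eluate lowest. Against DMSO, Otx2 fell by 0.53 on the log2 scale with WS1442 (SE 0.14, limma adjusted p = 0.0361) and by 1.27 with MeOH eluate (SE 0.14, limma adjusted p = 2.1e-05). Directly compared, MeOH eluate lay 0.74 below WS1442 at 6 h (log2 difference -0.74, SE 0.12, limma adjusted p = 0.00206), although the doses differed. The call with WS1442 at 6 h was borderline. It was lost, at adjusted p = 0.0630, when each array was scaled to its 75th percentile, and it was lost without either DMSO culture and without WS1442 replicate 2 or 3, with log2 fold changes from -0.62 to -0.43 over all cultures left out in turn.

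At 24 h the Otx2 signal was 9.11 and 9.42 with DMSO, 8.96, 8.94 and 8.87 with WS1442, and 8.74, 8.84 and 8.35 with MeOH eluate. The order of the groups was as at 6 h, again without overlap, but the distances were smaller. The log2 fold change was -0.62 with MeOH eluate (SE 0.14, limma adjusted p = 0.00459), a fall of 1.54-fold. With WS1442 it was -0.35 and not called (limma adjusted p = 0.0793). The call for MeOH eluate was lost without DMSO 24 h replicate 2, where the value was -0.47 (adjusted p = 0.0642). The effect of MeOH eluate at 24 h minus that at 6 h was 0.64 on the log2 scale, with a 95% confidence interval from 0.23 to 1.05 and an adjusted p of 0.0563, so a weakening of the fall over time was not called. The second Otx2 probe was well above background on 1 of the 16 arrays, DMSO 6 h replicate 2, and gave no comparison.

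Nes, the filament protein of neural progenitors, showed the most stable rise. At 6 h its log2 signal was 11.89 and 11.90 with DMSO, 11.99, 11.99 and 11.89 with WS1442, and 12.39, 12.18 and 12.31 with MeOH eluate. The WS1442 cultures overlapped with DMSO and all 3 MeOH eluate cultures lay above both other groups. The log2 fold change was 0.06 with WS1442 (SE 0.08, limma adjusted p = 0.765) and 0.40 with MeOH eluate (SE 0.08, limma adjusted p = 0.00409), and MeOH eluate exceeded WS1442 by 0.34 (SE 0.07, limma adjusted p = 0.0101). This last call was lost without MeOH eluate 6 h replicate 1 (adjusted p = 0.0517), and with 75th percentile scaling the difference was 0.21 (adjusted p = 0.0457).

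At 24 h the Nes signal was 11.29 and 11.27 with DMSO, 11.97, 12.15 and 12.07 with WS1442, and 11.90, 11.68 and 11.98 with MeOH eluate. All 6 treated cultures lay above both DMSO cultures, and the treatments overlapped each other. Nes rose by 0.78 with WS1442 (SE 0.08, limma adjusted p = 2.4e-05) and by 0.57 with MeOH eluate (SE 0.08, limma adjusted p = 0.000156), which is 1.72-fold and 1.49-fold. Both calls held with each of the 16 cultures left out in turn. The effect of WS1442 at 24 h exceeded that at 6 h by 0.72 (95% confidence interval 0.48 to 0.97, limma adjusted p = 0.00212), whereas for MeOH eluate the difference was 0.18 (-0.07 to 0.42, limma adjusted p = 0.406). Nes was thus raised at both time points with MeOH eluate and, as far as the test shows, only at 24 h with WS1442.

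**Figure D2:**
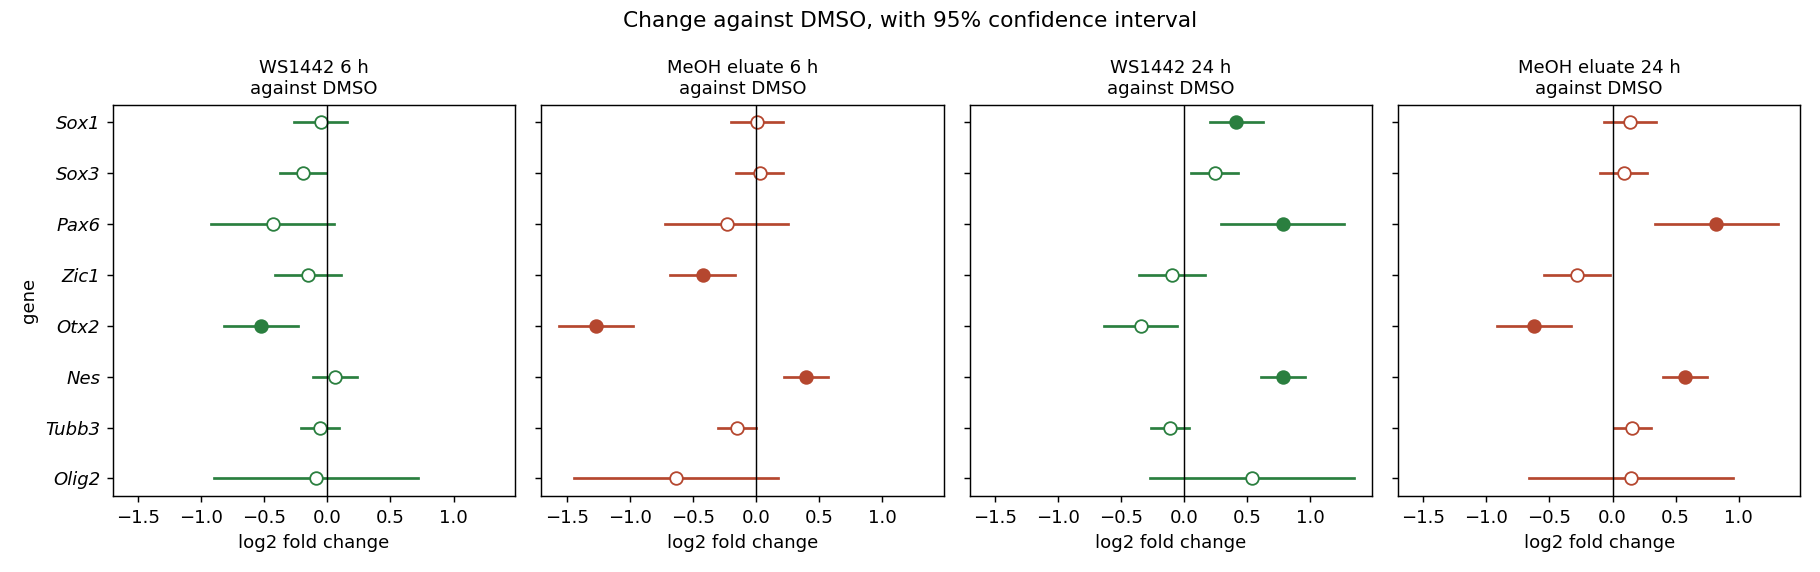
Log2 fold change against DMSO of the 8 tested marker genes (points) with 95% confidence intervals (lines), filled where the adjusted p-value was under 0.05. Otx2 lies left of 0 and Nes at or right of 0 in all panels, Pax6, Sox1, Sox3 and Olig2 change sides between 6 h and 24 h of WS1442, and Olig2 has the widest intervals.

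Sox1 and Sox3 are SOXB1 factors that keep neural progenitors undifferentiated. Sox1 is the more restricted to the neural plate, while Sox3 is also present in the epiblast. At 6 h the Sox1 signal was 6.78 and 6.68 with DMSO, 6.74, 6.71 and 6.57 with WS1442, and 6.64, 6.82 and 6.76 with MeOH eluate, and all groups overlapped. At 24 h it was 6.34 and 6.44 with DMSO, 6.73, 6.87 and 6.82 with WS1442, and 6.49, 6.58 and 6.53 with MeOH eluate. The groups then did not overlap, with WS1442 highest and DMSO lowest. Sox1 rose by 0.41 with WS1442 at 24 h (SE 0.10, limma adjusted p = 0.00639), a 1.33-fold change, and by 0.23 with the normexp background correction (adjusted p = 0.0173). With MeOH eluate the value was 0.14 and not called (limma adjusted p = 0.387). The difference between the treatments at 24 h, -0.27 for MeOH eluate minus WS1442, was just called (limma adjusted p = 0.0486), was -0.18 with normexp (adjusted p = 0.0475), and lost its call in 14 of 16 fits with 1 culture left out. Without DMSO 24 h replicate 1 the rise with WS1442 was no longer called either (adjusted p = 0.0727). The effect of WS1442 at 24 h exceeded that at 6 h by 0.47 (SE 0.14, limma adjusted p = 0.0385), and by 0.24 with normexp, where it was not called (adjusted p = 0.102).

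For Sox3 the 6 h signals were 9.45 and 9.28 with DMSO, 9.20, 9.20 and 9.12 with WS1442, and 9.42, 9.32 and 9.45 with MeOH eluate. At 24 h they were 8.90 and 8.98 with DMSO, 9.02, 9.23 and 9.30 with WS1442, and 9.14, 8.97 and 8.97 with MeOH eluate. WS1442 thus lay below DMSO at 6 h and above it at 24 h, each time without overlap, while MeOH eluate overlapped with DMSO at both time points. Neither WS1442 value was called, with log2 fold changes of -0.19 at 6 h (limma adjusted p = 0.230) and 0.24 at 24 h (limma adjusted p = 0.0538). The difference between these effects, 0.44 (SE 0.12), was called (limma adjusted p = 0.0318).

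Pax6, the paired box factor of the dorsal forebrain, eye and ventral spinal cord progenitors, was dim. At 6 h its signal was 5.21 on both DMSO arrays, 4.77, 4.90 and 4.65 with WS1442, and 5.10, 4.91 and 4.91 with MeOH eluate. Both treatments lay below DMSO without a call, with log2 fold changes of -0.43 (limma adjusted p = 0.319) and -0.23 (limma adjusted p = 0.549). At 24 h it was 3.40 and 4.30 with DMSO, 4.54, 4.51 and 4.85 with WS1442, and 4.58, 4.73 and 4.71 with MeOH eluate. All 6 treated cultures lay above both DMSO cultures, which differed from each other by more than the treatments did from the higher of them. DMSO 24 h replicate 1 was not well above background, so only 1 of the 2 control arrays measured the gene.

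The Pax6 rise at 24 h was 0.78 with WS1442 (SE 0.23, limma adjusted p = 0.0214) and 0.82 with MeOH eluate (SE 0.23, limma adjusted p = 0.0202). Without DMSO 24 h replicate 1 these values were 0.34 and 0.38 (adjusted p = 0.365 and 0.346), and with a normexp background correction they were 0.16 and 0.17. Scaling to the 75th percentile also ended the call for WS1442 (adjusted p = 0.0506). The effect of WS1442 at 24 h exceeded that at 6 h by 1.21 (SE 0.32, limma adjusted p = 0.0247). With normexp this difference was 0.28 (adjusted p = 0.0502). For MeOH eluate it was 1.05 (limma adjusted p = 0.0622). These values rest on the same DMSO array.

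Zic1 is a zinc finger factor of the neural plate border and dorsal neural tube. At 6 h its signal was 7.25 and 7.40 with DMSO, 7.26, 6.97 and 7.29 with WS1442, and 6.92, 6.90 and 6.89 with MeOH eluate. MeOH eluate lay below both other groups, and WS1442 overlapped with DMSO. Zic1 fell by 0.42 with MeOH eluate (SE 0.12, limma adjusted p = 0.0283), or 1.34-fold, a call that was lost in 5 of 16 fits with 1 culture left out. With WS1442 the log2 fold change was -0.15 (limma adjusted p = 0.554). At 24 h the signal was 6.80 and 6.83 with DMSO, 6.69, 6.69 and 6.78 with WS1442, and 6.66, 6.64 and 6.30 with MeOH eluate. The 3 groups did not overlap, in the order DMSO, WS1442, MeOH eluate, but no difference was called, the log2 fold change with MeOH eluate being -0.28 (limma adjusted p = 0.140).

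Tubb3, the tubulin of young neurons, changed little. Its signals at 6 h were 12.36 and 12.25 with DMSO, 12.22, 12.28 and 12.24 with WS1442, and 12.25, 12.18 and 12.04 with MeOH eluate. At 24 h they were 11.75 and 11.71 with DMSO, 11.67, 11.61 and 11.57 with WS1442, and 11.75, 11.92 and 11.99 with MeOH eluate. MeOH eluate lay above and WS1442 below DMSO at 24 h, neither of them called (log2 fold changes of 0.16 and -0.11, limma adjusted p = 0.146 and 0.268). Scaling to the 75th percentile moved both downwards, to 0.10 and -0.20, turned the sign with WS1442 at 6 h (-0.06 to 0.01), and called the difference between the treatments at 6 h (-0.22, adjusted p = 0.0380, against -0.09). The difference between the treatments at 24 h, 0.27 (SE 0.06), was called (limma adjusted p = 0.00980), but not without WS1442 24 h replicate 3 or MeOH eluate 24 h replicate 3, where the adjusted p reached 0.0554.

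Of the remaining members, Olig2 was well above background on 12 of 16 arrays, with signals between 3.12 and 4.73. Its log2 fold changes ran from -0.63 with MeOH eluate at 6 h to 0.54 with WS1442 at 24 h, each with an SE of 0.38, and were not called. The 95% confidence interval at 24 h of WS1442, from -0.27 to 1.35, leaves room for changes in either direction. Neurog2, the proneural factor, was well above background on 5 of 16 arrays, 1 with DMSO and 1 with WS1442 at 6 h, 2 with WS1442 and 1 with MeOH eluate at 24 h, with signals between 1.33 and 4.11. Pax3, the paired box factor of the dorsal neural tube and neural crest, was well above background on 0 of 16 arrays with either of its probes, so no level can be given.

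**Figure D3:**
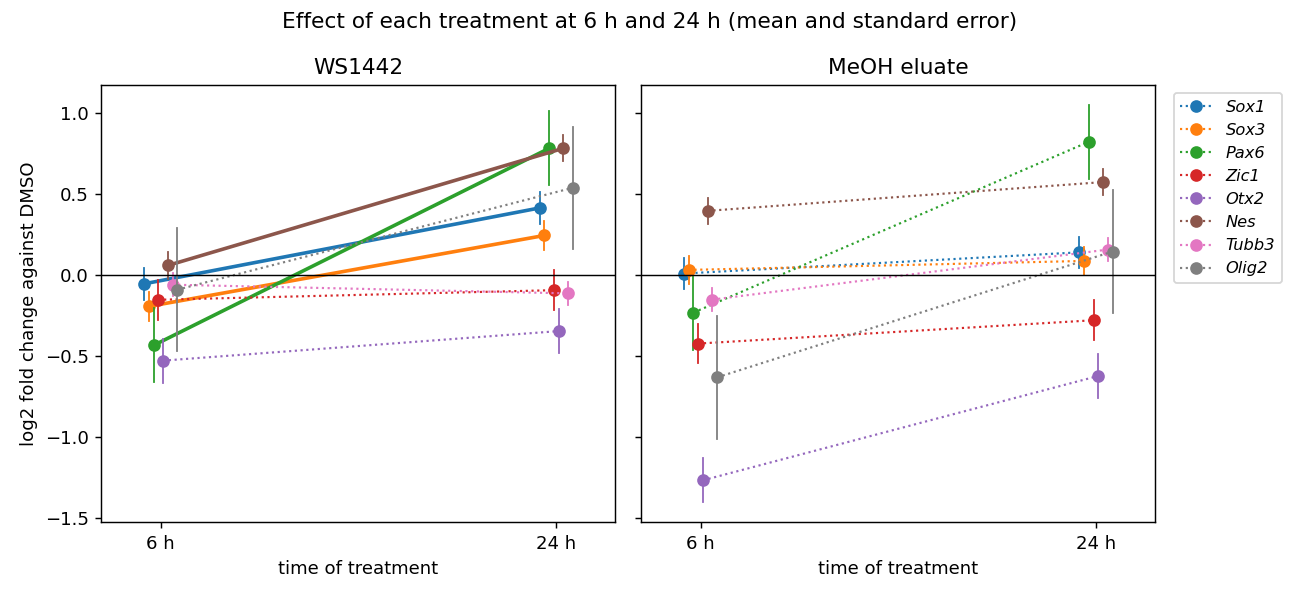
Log2 fold change against DMSO at 6 h and 24 h for each treatment (points, with bars of 1 standard error). Solid lines mark genes whose effect at 24 h differed from that at 6 h at an adjusted p-value under 0.05, which were Nes, Pax6, Sox1 and Sox3 with WS1442, all upwards, and 0 genes with MeOH eluate.

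With WS1442, the effects of Nes, Pax6, Sox1 and Sox3 at 24 h exceeded those at 6 h, so 4 of the 8 tested members were called, all upwards, against 12.7% of all genes called and 5.73% called upwards. Leaving out each culture in turn gave 1 to 4 members, and Nes was the only one called in every such fit. With MeOH eluate, limma called 0 of 8 members against 7.78% of all genes, and 3 members, Otx2, Pax6 and Tubb3, had an unadjusted p-value under 0.05. Whether the time course itself differed between the treatments was not tested. The effects at the different times were measured on different slides, so a slide effect that acts unequally on DMSO and treated arrays cannot be told apart from time. Labelling also moved with the groups at 24 h. Incorporation of the dye Cy3 was 25.8 to 26.1 pmol per µg with DMSO, 31.8 to 32.8 with WS1442 and 27.1 to 30.3 with MeOH eluate, and its part in the results was not tested.

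Between the treatments, limma called 2 of 8 members at 6 h (12.1% of all genes) and 2 at 24 h (14.6%), 1 in each direction both times. Of all genes, 4.79% were higher and 7.34% lower with MeOH eluate at 6 h, and 7.45% higher and 7.18% lower at 24 h. At 6 h MeOH eluate was higher than WS1442 for Nes and lower for Otx2, and at 24 h it was lower for Sox1 and higher for Tubb3. The WS1442 dose was 0.25 mg/ml of extract and the MeOH eluate dose 0.1 mg/ml of a fraction, so these differences do not compare equal amounts.

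After the mean of each slide was subtracted, some members followed each other over the 16 arrays. The Pearson correlation was 0.91 between Otx2 and Zic1, 0.68 between Sox1 and Nes, 0.66 between Sox1 and Sox3, and -0.68 between Otx2 and Nes. These values describe 16 arrays that share treatments, slides and normalization. The genes most like Otx2 were Lefty2, a nodal antagonist and target (r = 0.98), Tdgf1, the nodal co-receptor also called Cripto (0.96), and Dusp6, a phosphatase induced by FGF signalling (0.95). Lefty2 had log2 fold changes of -0.69 and -1.71 with WS1442 and MeOH eluate at 6 h, and of -0.67 and -1.06 at 24 h. The genes most like Nes were Sult4a1, a brain sulfotransferase (r = 0.96), Prag1 (0.95) and Gas2l1 (0.95). For Zic1 they were Nrarp, a Notch target (0.92), A930012L18Rik (0.91) and Adamts9 (0.91), for Sox1 Gm31556 and Klhl14 (each 0.91), and for Pax6 Gm35710 (0.91), Dbn1 (0.91) and Gkn2 (0.90).

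**Figure D4:**
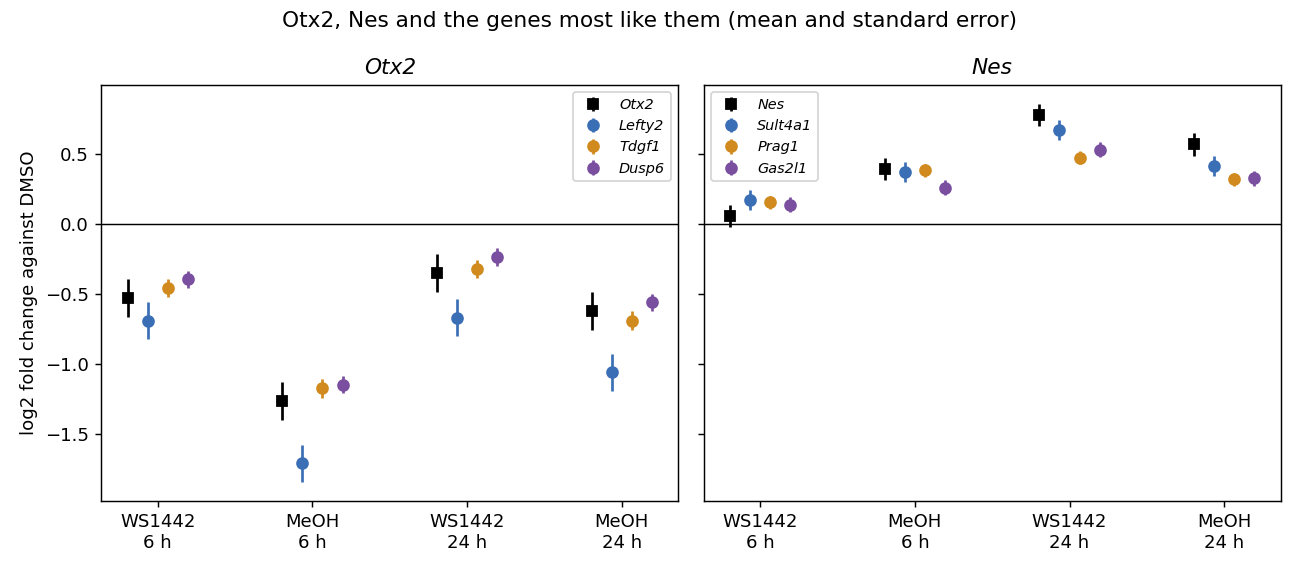
Log2 fold changes against DMSO of Otx2 and Nes (black squares) and of the 3 genes most correlated with each (circles), with bars of 1 standard error. The genes were chosen for this likeness. All 4 genes of the Otx2 panel are lowest with MeOH eluate at 6 h, and those of the Nes panel are highest with WS1442 at 24 h.

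Other genes of the neural programme were counted in lists written from general knowledge, beside the medians over all genes given above. Numbers in parentheses after a gene are its called log2 fold changes, with WS1442 first where both treatments are given. In each list and comparison only up to 4 called genes per direction were named. A gene not named for a comparison may still have been called there. Among 16 tested early neural genes, 2 were called upwards and 1 downwards with WS1442 at 6 h, 3 and 2 with MeOH eluate at 6 h, 3 and 4 with WS1442 at 24 h, and 2 and 3 with MeOH eluate at 24 h. Of all genes, 4.14% and 1.45% were called upwards and downwards with WS1442 at 6 h, and 8.65% and 8.38% with MeOH eluate. At 24 h it was 12.9% and 11.9% with WS1442, and 9.64% and 8.6% with MeOH eluate. These shares apply to each list below, and counts in such small lists cannot be read closely against them. Irx3 rose at 6 h (0.88, 1.71). Prom1, a surface marker of progenitors, rose at 6 h (0.33, 0.32) and at 24 h (0.71, 0.85). Hes5, a Notch effector that keeps progenitors cycling, fell with MeOH eluate at 6 h (-1.18) and with both at 24 h (-0.53, -0.51). Zic2, a relative of Zic1, fell at 6 h (-0.42, -0.35) and with MeOH eluate at 24 h (-0.51). Pou3f1 rose with MeOH eluate at 6 h (0.25) and with both at 24 h (0.32, 0.34). With WS1442 at 24 h Sox2, the third SOXB1 factor, fell (-0.57) and Fabp7 fell (-0.49). Cdh2, N-cadherin, fell at 24 h (-0.31, -0.53).

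Of the 24 tested neuronal genes, 8 were called upwards and 1 downwards with WS1442 at 24 h and 9 upwards and 2 downwards with MeOH eluate, with medians of 0.28 and 0.24 (0.22 and 0.15 with normexp), while at 6 h it was 2 and 1, then 4 and 1. At 24 h the vesicular glutamate transporter Slc17a6 rose (1.36, 1.37), being well above background on 1 of the 2 DMSO arrays. The neurofilament Nefm rose (0.60, 0.76), as did the growth cone protein Gap43 (0.41, 0.74). The 2 DMSO arrays at 24 h differed widely for Nefm, with an SD of 0.59. It was 0.09 with WS1442 and 0.07 with MeOH eluate, so the size of the Nefm rise is uncertain. Dcx rose with WS1442 (0.53) and Dpysl3 with MeOH eluate (0.61), while the adhesion molecule L1cam fell (-0.68, -0.76) and Isl1 fell with MeOH eluate (-0.57). At 6 h Map2 rose (0.53, 0.67), L1cam rose (0.47, 0.44), and Isl1 (0.55) and Gap43 (0.35) rose with MeOH eluate. Nefl fell at 6 h (-0.55, -0.96), but not at 24 h. Its mean log2 signal at 24 h was 10.77 after MeOH eluate and 10.49 after WS1442, above the DMSO mean of 10.27. For Map2 the 24 h means were 8.15 after MeOH eluate and 7.97 after WS1442, above the DMSO mean of 7.60. Of 12 tested proneural genes, Ebf2 (0.53) and the Notch ligand Dll3 (0.40) rose with WS1442 at 24 h, Dll3 rose (0.24) and Neurod4 fell (-0.75) with MeOH eluate at 6 h, and 0 were called by limma in the other comparisons with DMSO.

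Of 23 tested regional patterning genes, 4 rose and 0 fell with WS1442 at 24 h, where 12.9% of all genes were called higher and 11.9% lower. The median was 0.25, and 0.11 with normexp and 0.15 with 75th percentile scaling, under each of which 3 rose. The ventral neural tube genes Nkx2-2 (0.71) and Nkx6-1 (0.70) rose, and Pax2 was called higher (limma adjusted p = 0.0402). Pax2 was well above background on 2 of 3 WS1442 arrays and on neither DMSO array, so no fold change is given and the call rests partly on unmeasured signals. With MeOH eluate at 24 h Nkx6-1 rose (0.70) and En1 fell (-0.72). At 6 h Gbx2 rose with WS1442 (0.79), and with MeOH eluate Pax8 (1.17) and Nkx6-1 (0.76) rose, while the floor plate genes Foxa2 (-0.71) and Shh (-0.67) fell.

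**Figure D5:**
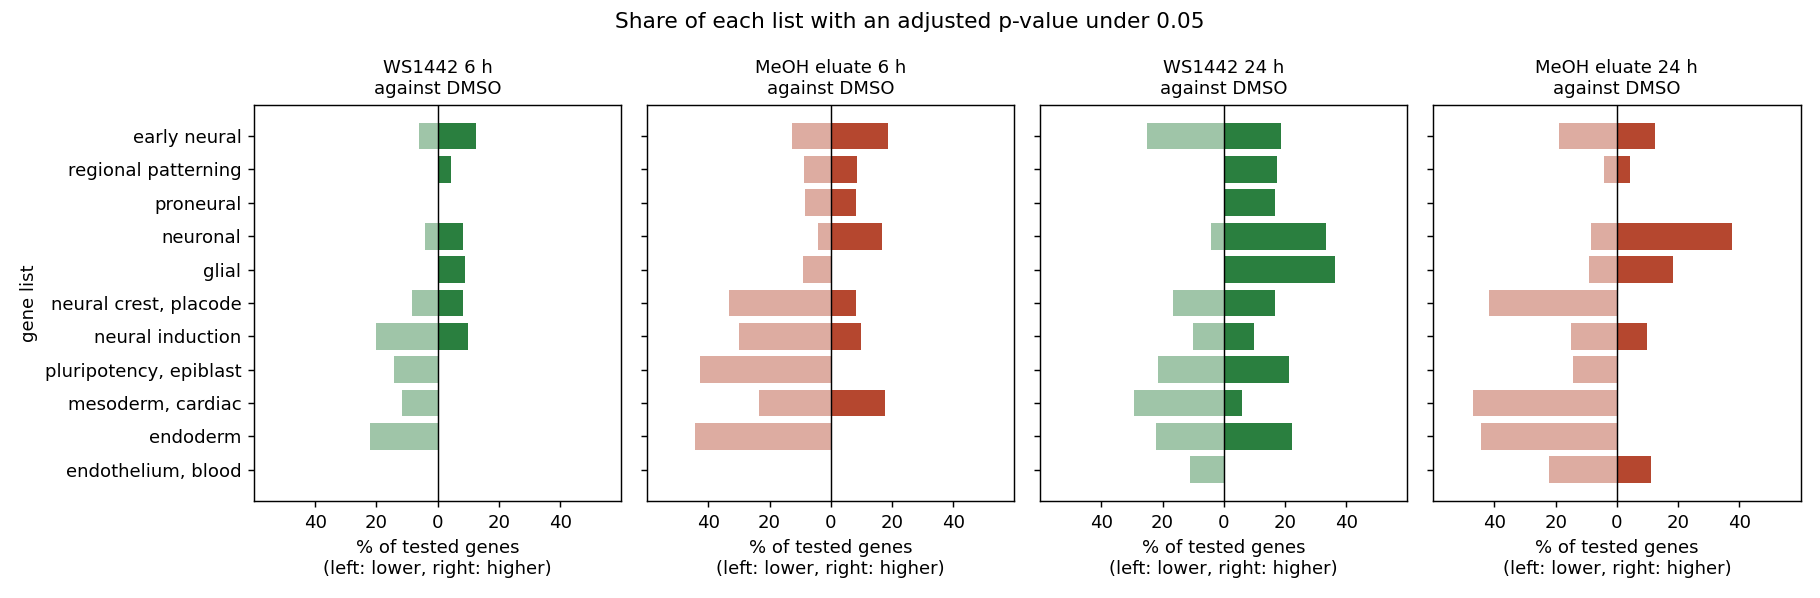
Share of the tested genes of each list that were higher (right, full colour) or lower (left, pale) than DMSO at an adjusted p-value under 0.05. The neuronal bars point mostly to the right at 24 h, where 8 and 9 of 24 genes were higher with WS1442 and MeOH eluate, against 12.9% and 9.64% of all genes. The endoderm bars with MeOH eluate point only to the left, with 4 of 9 genes lower at each time point. So do the pluripotency and epiblast bars, with 6 of 14 lower at 6 h and 2 at 24 h. Of all genes, 8.38% and 8.6% were lower with MeOH eluate at 6 h and 24 h.

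Genes around neural induction and of the other germ layers moved in the same samples. Of 20 tested induction genes, 2 were called upwards and 4 downwards with WS1442 at 6 h, 2 and 6 with MeOH eluate at 6 h, 2 and 2 with WS1442 at 24 h, and 2 and 3 with MeOH eluate at 24 h. The ligand Bmp4 fell at 6 h (-0.32, -0.77) and with MeOH eluate at 24 h (-0.46), while Bmp7 rose at 6 h (0.64, 0.60) and with MeOH eluate at 24 h (0.46). The feedback inhibitor Smad7 fell with WS1442 at 6 h (-0.41) and with both at 24 h (-0.66, -0.98). With MeOH eluate at 6 h the mean log2 signal of Smad7 was lower as well, at 8.70 against 9.28 with DMSO. The BMP target Id2 rose at 6 h (0.52, 0.89) and fell with MeOH eluate at 24 h (-0.30), and Bambi rose with WS1442 at 24 h (1.07). Among the antagonists, Fst (-1.01) and Cer1 (-1.81) fell with MeOH eluate at 6 h, Cer1 being measured on 1 of 3 of those arrays, and Cer1 also fell with WS1442 at 24 h. Dkk1 fell at 6 h (-0.75, -0.89) and rose with MeOH eluate at 24 h (0.88). Sfrp2 fell at 6 h (-0.36) and rose at 24 h (0.39) with WS1442.

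Of 14 pluripotency and epiblast markers, 2 fell with WS1442 and 6 with MeOH eluate at 6 h, and 0 rose. Otx2 is also active in the epiblast, but the list joins epiblast markers with other pluripotency genes. Their mean log2 level at 6 h lay between 9.11 and 9.18 in the DMSO cultures, 8.84 and 9.03 with WS1442, and 8.77 and 8.90 with MeOH eluate. Tdgf1 (-0.45, -1.17) and Utf1 (-0.41, -0.59) fell with both treatments, and Nanog (-0.94) and Dppa3 (-0.58) with MeOH eluate. At 24 h, 3 rose and 3 fell with WS1442, and 0 rose and 2 fell with MeOH eluate, with mean levels of 8.76 to 8.91 in DMSO, 8.85 to 8.91 with WS1442 and 8.86 to 8.92 with MeOH eluate. Tdgf1 (-0.32, -0.69) and Lin28a (-0.53, -0.24) fell with both, Dppa5a (-0.30) fell with WS1442, and Klf2 (0.51), Dnmt3b (0.36) and Utf1 (0.35) rose with WS1442. The part of epiblast cells in the Otx2 values was not tested.

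Of 17 tested mesoderm and cardiac progenitor markers, which did not include Myh6, 0 rose and 2 fell with WS1442 at 6 h, 3 rose and 4 fell with MeOH eluate at 6 h, 1 rose and 5 fell with WS1442 at 24 h, and 0 rose and 8 fell with MeOH eluate at 24 h. At 6 h Mixl1 (-0.99, -2.39) and Eomes (-0.39, -0.91) fell with both treatments. With MeOH eluate at 6 h brachyury, T (-1.29), and Msgn1 (-0.57) fell, and Isl1 (0.55), Mesp2 (0.46) and Hand1 (0.46) rose. At 24 h Gata4 (-0.72, -1.38) and Mixl1 fell with both, Mesp1 (-0.66) and Hand2 (-0.49) fell and Mef2c (0.48) rose with WS1442, and Msgn1 (-0.77) and Eomes (-0.74) fell with MeOH eluate. With MeOH eluate at 24 h the mean log2 signal of Mesp1 was 7.22, against 7.70 with DMSO. That of Hand2 was 5.85, against 6.54 with DMSO. The mean level of the list at 24 h was 7.79 to 7.82 with DMSO, 7.61 to 7.72 with WS1442 and 7.35 to 7.48 with MeOH eluate. Its part in the rise of Nes, Pax6 and Sox1 was not tested.

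Of 9 tested endoderm markers (Apoa1, Hnf4a and Ttr were not tested), 0 rose and 2 fell with WS1442 at 6 h, 0 rose and 4 fell with MeOH eluate at each time point, and 2 rose and 2 fell with WS1442 at 24 h. Gsc, a factor of the anterior streak (-0.98, -2.66), and Gata6 (-0.62, -1.79) fell at 6 h with both treatments, and Sox17 (-0.65) and Foxa2 (-0.71) with MeOH eluate. At 24 h Sox17 (-1.24, -1.65) and Cxcr4 (-0.70, -1.01) fell with both, Gata6 (-1.48) and Gsc (-0.79) fell with MeOH eluate, and Afp (0.51) rose with WS1442. The mean level at 6 h was 8.75 to 8.77 with DMSO, 8.44 to 8.51 with WS1442 and 8.05 to 8.10 with MeOH eluate.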

How the data were processed

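The deposited files hold scanner intensities of 1-colour Agilent arrays, background corrected by the authors' Agilent Feature Extraction 11.5.1.1 (protocol GE1_1105_Oct12, per the file headers) but with no normalization across arrays. The authors also deposited a table of quantile normalized intensity values of the same arrays, used here as an alternative, which gave all 18 calls of the members again. With the same arrays and the same kind of normalization, it was not an independent check. Each array held 61473 gene spots of 60273 probes, and 55.1% to 63.0% of gene spots were well above background (median 58.9%). RNA integrity numbers lay between 8.6 and 10. Replicate number and array signal limit the precision.

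Quantile normalization, the method the paper names, was applied to the log2 intensities of all 16 arrays with limma 3.58.1 in R 4.3.3. Tables and figures were made with Python 3.11.15. Spots of one probe were averaged. Probes were named through RefSeq accessions (GRCm38.p6) for 32916 probes, then through the gene name column, and 15071 stayed unnamed. The filter kept 36721 probes, those that in 1 or more of the groups had no array without a signal well above background, and the kept probe with the highest mean stood for its gene. Limma (eBayes with trend) was fitted to 6 group means without covariates, and p-values were adjusted by the Benjamini-Hochberg method over 29300 to 29304 genes. The procedure was tested on simulated data.

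The members and all gene lists were chosen with earlier results of these data known. Named were all 10 members, in each other list and comparison with DMSO up to 4 called genes per direction with the largest change, and for each called member the 3 most correlated annotated genes. Some genes that this rule names are counted but not reported by name here. A bound ("at least") sets the brighter group's mean against the lowest signal well above background on each array of the dim group, or the probe's own if higher. Alternatives were scaling to the 75th percentile, a normexp background correction with an offset of 50, no filter and a stricter one, the mean of kept probes, the authors' table, Student's t-test (which the paper names for pairwise comparisons, here the methods' t-test), eBayes without trend, a fit within the time point, a replicate block, and each culture left out in turn.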

Additional observations from a re-analysis of the deposited data

Results flagged for a closer look

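Genes whose response to WS1442 differed between 24 h and 6 h, by the test of that difference, were Nes (0.72 on the log2 scale), Pax6 (1.21), Sox1 (0.47) and Sox3 (0.44). Groups of 2 and 3 cultures were too small to look for single outlying cultures. For Nes, the difference passed the threshold in all 16 fits with 1 culture left out. For Pax6 and Sox3 it passed in 11 of 16 and for Sox1 in 9 of 16. In each of these 3 genes the fit without DMSO 24 h replicate 1 was among those that did not pass, and for Pax6 that fit gave the lowest value, 0.77.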

How the results depend on the processing

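Over 18 called changes of the members, 0 changed direction under any alternative. Of 169 values under other settings 133 stayed past the threshold, and of 288 values with 1 culture left out 238 did. The 169 include 2 settings that could hardly differ from the main fit, each with 18 of 18 past the threshold. Each tested member had only 1 kept probe, so the mean of kept probes left its signal unchanged. The authors' table holds the same arrays after the same kind of normalization. The methods' t-test called 0 members after adjustment in each of the 6 comparisons it could be run on, against 1, 3, 3, 3, 2 and 2 with limma, and 2, 3, 2, 1, 3 and 2 at an unadjusted p-value under 0.05. Over all genes it called 1, 8, 104 and 322 in the comparisons with DMSO (WS1442 and MeOH eluate at 6 h, then at 24 h), against 1638, 4991, 7249 and 5344 with limma, and with WS1442 at 6 h eBayes without trend gave 985, the replicate block 555 and the fit within the time point 498. By the study's limits it gave 1 member with MeOH eluate at 6 h and 0 otherwise. For WS1442 at 6 h the count fell from 1 to 0 with 75th percentile scaling, no filter, eBayes without trend, the replicate block and the fit within the time point. With WS1442 at 24 h it fell from 3 to 2 with 75th percentile scaling, normexp, the replicate block and the fit within the time point, with MeOH eluate at 24 h from 3 to 2 with normexp, the replicate block, the fit within the time point and the stricter filter (which left Pax6 untested), and with MeOH eluate at 6 h from 3 to 2 with the replicate block. Between the treatments at 24 h it fell from 2 to 1 with 75th percentile scaling, the replicate block and the fit within the time point. For the difference between 24 h and 6 h, the WS1442 count fell from 4 to 2 with normexp and to 1 with the replicate block, and the MeOH eluate count rose from 0 to 1 with the stricter filter, eBayes without trend and the replicate block.

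With 1 culture left out, the members called ranged from 0 to 1 (WS1442, 6 h), 2 to 3 (MeOH eluate, 6 h), 1 to 4 (WS1442, 24 h), 2 to 4 (MeOH eluate, 24 h), 1 to 3 and 0 to 3 (between treatments at 6 h and 24 h), and 1 to 4 and 0 to 2 (24 h minus 6 h for WS1442 and MeOH eluate). Without DMSO 24 h replicate 1, 1 member, Nes, was called with WS1442 at 24 h. Replicate numbers were not treated as pairing the samples, since the deviations of same-numbered arrays correlated between -0.24 and 0.31 and exceeded 0.1 in 2 of 14 pairs. The cause of these changes was not tested. Dim probes limit what can be said of Pax6, Olig2, Neurog2 and Pax3.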

Other observations

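Neural crest and placode genes, which arise at the border of the neuroectoderm, were lower in part. Of 12 tested (Ednrb and Tfap2c were not), 1 rose and 1 fell with WS1442 at 6 h, 1 rose and 4 fell with MeOH eluate at 6 h, 2 rose and 2 fell with WS1442 at 24 h, and 0 rose and 5 fell with MeOH eluate at 24 h. Numbers in parentheses are log2 fold changes, with WS1442 first where both treatments are given. Msx1, a BMP-responsive border factor, fell at 6 h (-0.47, -1.54) and at 24 h (-0.48, -1.18), and Msx2 fell at 24 h (-0.36, -1.18). With MeOH eluate Eya1 fell at 6 h (-0.64) and 24 h (-0.98), and Tfap2a (-0.53) and Foxd3 (-0.51) fell at 6 h. Ets1 rose at 6 h (0.42, 0.79), and Tfap2b (1.05) rose with WS1442 at 24 h.

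Of 11 tested glial genes (S100b and Sox8 were not), 1 rose and 0 fell with WS1442 at 6 h, 0 rose and 1 fell with MeOH eluate at 6 h, 4 rose and 0 fell with WS1442 at 24 h, and 2 rose and 1 fell with MeOH eluate at 24 h. Aldh1l1 rose with WS1442 at 6 h (0.29) and with both at 24 h (0.45, 0.70). Gfap rose at 24 h (0.27, 0.58), and Sox9 (0.25) rose with WS1442 at 24 h. With MeOH eluate Cspg4 (-0.56) fell at 6 h and Nkx2-1 (-0.28) at 24 h. Of 9 tested endothelial and blood markers, limma called 0 at 6 h with either treatment. At 24 h Tal1 fell (-1.19, -1.89), and with MeOH eluate Hbb-bh1 rose (1.45), being well above background on 1 of the 2 DMSO arrays, and Cdh5 was at least 2.08-fold lower (limma adjusted p = 0.00133), not being well above background on any MeOH eluate array.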
